A study of Mus musculus with 8 samples.

Results

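Genes that mark monocytes and macrophages were followed through a course of ATAC-seq in AML246, a line of mouse acute myeloid leukaemia cells grown with IL-3. ATAC-seq inserts adapters into open DNA with a transposase, so that open chromatin is sequenced. The set held 44 genes, listed by role: transcription factors, Fc receptors, C-type lectins and TREM receptors, scavenger receptors, surface markers and effectors, and costimulation and adhesion molecules. Each was given the chromatin regions whose nearest protein-coding gene it was, within 100 kb, which came to 176 regions at 40 genes out of 68800 regions in all. Of these 68800, 64638 had a protein-coding gene within 100 kb. Apoe, Clec7a, Ms4a7 and Ms4a6c had none.

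Per the labels, doxycycline (Dox) at 0.1 µg/mL was used to restore PU.1, and taking it away put PU.1 back under knockdown. The groups were CD11b-high viable cells sorted after 12 days on Dox, and total viable cells before treatment (day 0), on Dox for 4, 8 and 12 days, and 4, 8 and 12 days off Dox after 12 days on it. Each group was 1 library of this 1 line, so there is no replicate error, no test and no p-value, and the values describe these libraries. The genotype of the line beyond its name, and how the knockdown was built, are not stated in the labels used. In a population, fewer open cells and less open chromatin per cell cannot be told apart.

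The deposited data hold, for every library, the summits of its peaks and 1 score per summit, taken to be −log10 p or −log10 q. A region is called open in a library when that library's list held a summit in it; a region with no summit is not thereby closed. The lists held 31957 to 51175 summits, the longest at 4 days off and the shortest at 12 days off. The scores are the authors' own, move with the depth of a library and are given to describe each list; a higher score in one library than in another is not read as more open chromatin. Shares carry exact Clopper-Pearson 95% intervals, whose width reflects counting error alone; regions near each other need not vary independently.

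PU.1, encoded by Spi1, is an ETS-family transcription factor that binds purine-rich DNA with a GGAA core and is required for the development of macrophages in mice. Monocytes and macrophages carry receptors for the Fc part of antibodies, C-type lectins that bind microbial and dying-cell ligands, and scavenger receptors that take up lipids and debris. Their identity also rests on transcription factors of the KLF, EGR, MAF and nuclear receptor families that act with or after PU.1.

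The promoters below are shown because a changed region overlapped the window around an annotated start of the gene. They are the 5 members with the highest scores among those whose 300-base window (250 bases before the start and 50 after it) overlapped a gained or lost region or one called in CD11b-high and not in total cells of day 12. Gained means no summit on day 0 and one on each of day 4, 8 and 12; lost means a summit on day 0 and none on those days. Windows come from RefSeq, build GRCm38.p6 (also called mm10), are written along the gene's strand, and have the PU.1 core GAGGAA in capitals, as TTCCTC where it lies on the other strand.
Fcgr1 (chr3:96293920-96294219, minus strand): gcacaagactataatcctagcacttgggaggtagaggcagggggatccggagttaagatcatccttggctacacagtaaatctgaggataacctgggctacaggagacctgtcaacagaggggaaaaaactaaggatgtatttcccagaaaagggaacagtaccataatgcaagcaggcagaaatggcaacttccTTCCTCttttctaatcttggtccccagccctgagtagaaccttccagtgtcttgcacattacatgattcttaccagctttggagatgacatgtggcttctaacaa
Clec4e (chr6:123289822-123290121, minus strand): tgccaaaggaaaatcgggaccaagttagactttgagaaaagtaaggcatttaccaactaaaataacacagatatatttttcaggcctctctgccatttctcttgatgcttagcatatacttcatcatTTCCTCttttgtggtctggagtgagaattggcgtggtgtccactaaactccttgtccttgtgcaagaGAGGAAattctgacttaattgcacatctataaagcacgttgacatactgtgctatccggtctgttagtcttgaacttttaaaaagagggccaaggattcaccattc
Fcgr3 (chr1:171059345-171059644, minus strand): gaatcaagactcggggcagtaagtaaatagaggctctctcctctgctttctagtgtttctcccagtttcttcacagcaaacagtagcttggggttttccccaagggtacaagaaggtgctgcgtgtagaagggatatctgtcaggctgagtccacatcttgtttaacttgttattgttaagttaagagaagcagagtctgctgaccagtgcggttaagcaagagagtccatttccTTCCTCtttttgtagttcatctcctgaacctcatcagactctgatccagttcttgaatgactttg
Fcgr2b (chr1:170976022-170976321, minus strand): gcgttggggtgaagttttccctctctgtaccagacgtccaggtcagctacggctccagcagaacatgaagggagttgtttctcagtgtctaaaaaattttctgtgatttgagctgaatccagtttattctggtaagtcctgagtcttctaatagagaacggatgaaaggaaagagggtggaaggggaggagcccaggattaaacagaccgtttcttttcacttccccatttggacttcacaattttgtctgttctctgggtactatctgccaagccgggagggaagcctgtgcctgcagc
Clec4d (chr6:123261857-123262156, plus strand): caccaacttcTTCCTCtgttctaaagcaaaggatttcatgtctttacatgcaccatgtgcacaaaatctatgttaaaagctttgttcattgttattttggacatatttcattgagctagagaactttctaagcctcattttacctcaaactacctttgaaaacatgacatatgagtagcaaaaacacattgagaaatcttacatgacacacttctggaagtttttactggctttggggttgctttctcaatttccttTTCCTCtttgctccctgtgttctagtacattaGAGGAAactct
For comparison, the starts of Egr2 and Id2 lay in regions that were open in all 8 libraries.
Egr2 (chr10:67537316-67537615, plus strand): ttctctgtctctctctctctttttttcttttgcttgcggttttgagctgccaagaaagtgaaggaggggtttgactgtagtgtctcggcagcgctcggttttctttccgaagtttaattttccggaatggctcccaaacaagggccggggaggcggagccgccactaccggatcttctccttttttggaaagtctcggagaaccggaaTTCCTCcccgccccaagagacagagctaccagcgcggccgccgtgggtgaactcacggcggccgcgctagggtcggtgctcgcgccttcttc
Id2 (chr12:25096043-25096342, minus strand): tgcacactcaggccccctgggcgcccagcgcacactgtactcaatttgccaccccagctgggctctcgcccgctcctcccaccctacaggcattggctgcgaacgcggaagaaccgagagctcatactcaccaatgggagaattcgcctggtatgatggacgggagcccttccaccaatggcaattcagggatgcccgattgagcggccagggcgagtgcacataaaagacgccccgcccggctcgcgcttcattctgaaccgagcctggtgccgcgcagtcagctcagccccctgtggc

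A gained region lay over an annotated start of 3 genes, the Fc receptor genes Fcgr1 and Fcgr3 and the lectin gene Clec4e. Each held GAGGAA upstream of that start, which for Fcgr3 lies inside the gene span. The match began 55 bases before the start in Fcgr1, 15 bases before it in Fcgr3, and 123 and 56 bases before it in Clec4e. Clec4d held 3 matches, which began 240 bases before the start and 7 and 39 bases after it, and Fcgr2b held none. The Clec4d region ended before the start, its centre lying 364 bp away, so the matches after the start lay outside it. Of the always-open pair, Egr2 held 1 match, 42 bases before the start, and Id2 held none.

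RefSeq windows were found for 32 of the 44 members, and 18 of these 32 (56.2%) held GAGGAA on either strand in at least 1 window, against 8446 of 27025 genes (31.3%). The longer form AGAGGAAGT, which contains GAGGAA, was in a window of 1 member, Fcgr4, and of 1.18% of all genes. TGANTCA (AP-1) was found in 4 members (12.5%, against 8.97% of genes), TTGCNNAA (C/EBP) in 5 (15.6%, against 12.2%) and TGTGGT (RUNX) in 3 (9.38%, against 18.9%). Counted by window, GAGGAA was in 28 of 48 member windows (58.3%), against 28.3% of 32851; windows of 1 gene can overlap. A match describes letters only and does not show binding. A region in at least 1 library lay over 27 of the 48 member windows (56.2%), at 18 members, against 12246 of 32851 windows (37.3%). The background of 27025 genes exceeds the 21887 protein-coding genes, so it includes genes of other kinds, while all 44 members are protein-coding. Members also had more windows per gene (48 for 32, against 32851 for 27025), which can raise a share counted over genes. Neither difference was adjusted for.

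As a class, the 176 regions were called more often in longer lists and less often in shorter ones. Members had 47.7% of their regions open in CD11b-high cells, against 51.1% of all regions. Over day 0, 4, 8 and 12 the members' shares were 44.9%, 45.5%, 61.9% and 44.3%, followed by 76.7%, 56.8% and 40.9% at 4, 8 and 12 days off. Shares of all regions at the same times were 51.5%, 50.1%, 66.8%, 49.6%, 72.7%, 59.0% and 45.3%. In 7 of the 8 libraries the members' share lay below that of all regions, and at 4 days off it lay above it.

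**Figure D1:**
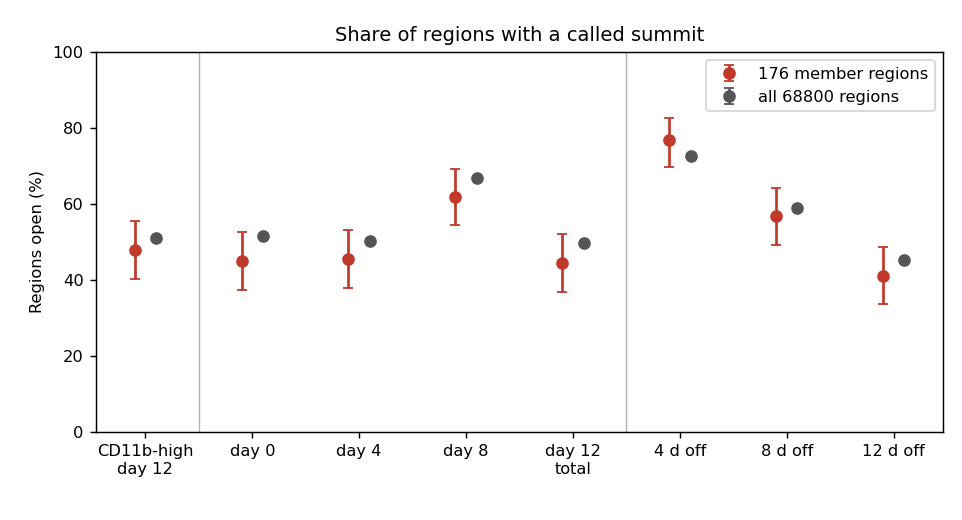
Share of regions with a called summit in each library (vertical axis, %), for the 176 regions of the 44 genes (red) and for all 68800 regions (grey); bars are exact 95% intervals, too narrow to see for all regions. The red points follow the grey ones, from 40.9% at 12 days off to 76.7% at 4 days off.

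Set per 10000 open regions of the same library, member regions numbered 23.9 (19.1 to 29.6) in CD11b-high cells. Total cells had 22.3 (17.7 to 27.8) on day 0, then 23.2, 23.7 and 22.9 (18.1 to 28.5) on day 4, 8 and 12. After withdrawal they had 27.0 (22.6 to 31.9), 24.6 and 23.1 at 4, 8 and 12 days. All 8 intervals overlapped. The same member regions were counted in every list, so the values are not independent of each other. Overlap of separate intervals therefore cannot decide whether the whole set shifted, and this was not tested. Between 30 and 38 members had an open region in any 1 library.

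Member regions were seldom open throughout. Only 32 of 176, or 18.2% (12.8 to 24.7), were open in all 8 libraries, against 27.2% of all regions. The gap was widest at gene ends: of the 32 member regions within 1 kb of an end, 6 (18.8%) were open in all 8, against 54.9% of the 14748 such regions of all genes. Inside genes and farther from the ends the shares were 9.62% of 52 and 20.1%, and outside genes 22.8% of 92 and 19.7%. Member regions lay outside the gene more often than assigned regions in general, at 52.3% (44.6 to 59.8) against 32.2%.

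**Figure D2:**
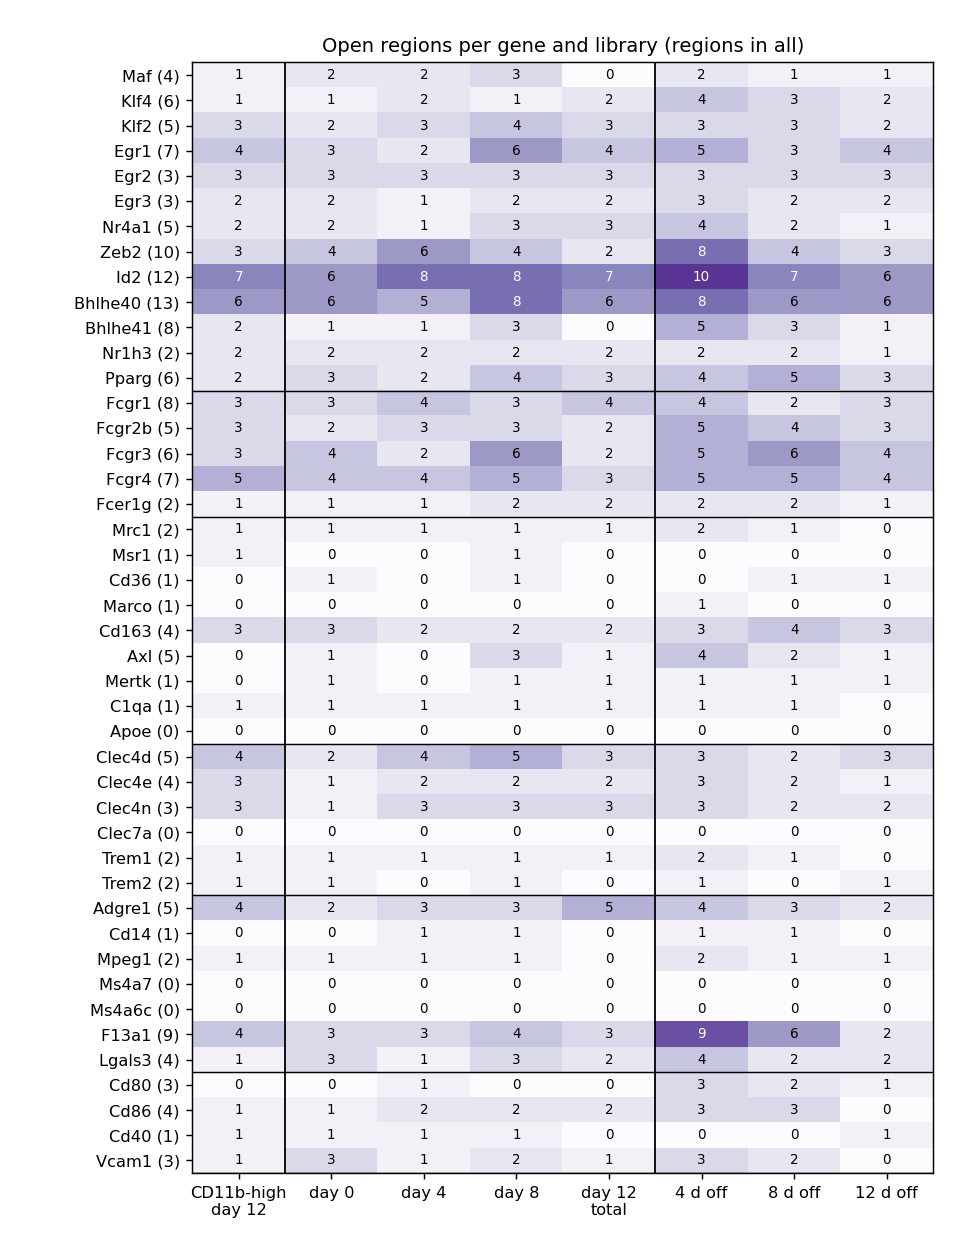
Number of open regions of each gene in each library (cells), with the number of its regions in all 8 libraries together in brackets; lines separate the role groups. F13a1 has 9 open regions at 4 days off, the longest list, and 3 at day 0, and 4 genes have none anywhere.

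The first comparison asked where chromatin at these genes was newly called, or no longer called, on Dox. Gained regions were 9.66% (5.73 to 15.0) of member regions, 17 of 176, against 4.94% of all regions. Lost regions were 5.11% (2.36 to 9.49), 9 of 176, against 5.62%. The gained share was thus above the background while the lost share was near it. The gained regions fell at 13 genes and the lost ones at 9. Of the 40 members with a region, 32.5% had a gained one, against 15.4% of the 16275 genes with a region, and 22.5% had a lost one, against 18.1%; members had a median of 4 regions and all genes a median of 3.

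Near gene ends, 3 of 32 member regions (9.38%) were gained, against 1.89% of such regions of all genes. Inside genes the gained share was 13.5%, against 5.82%, and outside genes 7.61%, against 5.64%. The counts moved with single lists. Without the day-4 list the rule gave 26 gained regions (14.8%, against 10.2% of all regions) and 15 lost ones (8.52%, against 7.44%). Without the day-8 list it gave 18 gained (10.2%, against 5.34%) and 20 lost (11.4%, against 8.92%).

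Lectin and Fc receptor genes together held 8 of the 17 gained regions. C-type lectin and TREM receptor genes had 4 gained and 0 lost of 16 regions (25.0% gained), and Fc receptor genes 4 gained and 1 lost of 28 (14.3%). Transcription factor genes had 6 gained and 4 lost of 84 (7.14%). Scavenger and uptake genes had 0 gained and 1 lost of 16, surface marker and effector genes 1 and 1 of 21, and costimulation and adhesion genes 2 and 2 of 11. With so few regions each, the differences between these groups were not tested.

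Lists of other cell types also held changed regions. Granulocyte genes had 7 gained and 6 lost of 60 regions (11.7% gained), and eosinophil genes 5 gained and 1 lost of 17 (29.4%). Mast cell and basophil genes had 1 and 0 of 25, and T cell genes 0 and 1 of 32. Erythroid genes had 0 gained and 5 lost of 17, and B cell genes 0 and 3 of 13. Granulocyte and eosinophil genes thus also had gained shares above 4.94%, and the part of granulocyte or eosinophil chromatin in these lists was not tested.

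**Figure D3:**
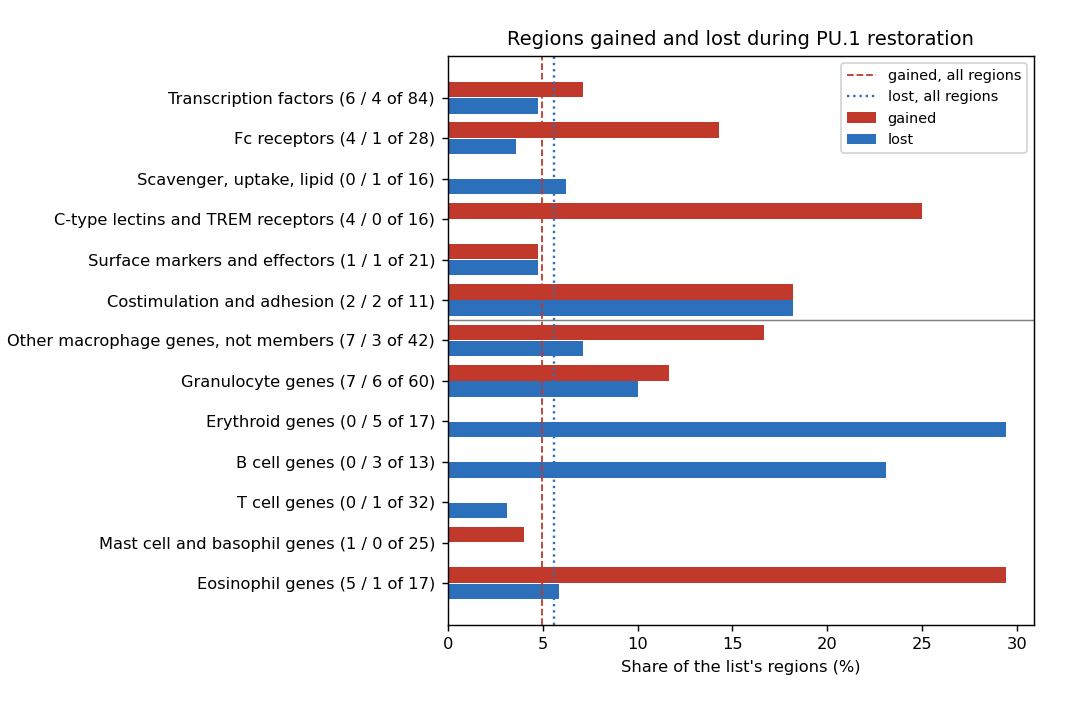
Share of each list's regions that were gained (red) or lost (blue) during restoration; numbers in brackets are gained / lost of all regions of the list, and vertical lines mark 4.94% gained and 5.62% lost over all regions. Role groups of the 44 genes are above the grey line, other lists below it; lectin and TREM receptor genes reach 25.0% gained and erythroid genes 29.4% lost.

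The C-type lectin genes Clec4n, Clec4d and Clec4e stand side by side on chromosome 6 and encode Dectin-2, MCL and Mincle, receptors for fungal and mycobacterial glycolipids and sugars that signal through the Fc receptor gamma chain. The gained region with the highest score lay 2121 bp outside Clec4n (chromosome 6, 123227547 to 123227897). Its scores were 24.7 in CD11b-high cells, none on day 0 and 29.5, 53.7 and 29.1 on day 4, 8 and 12, and 25.7, 13.9 and 5.03 at 4, 8 and 12 days off. A further region 5931 bp from Clec4n, on the side of Clec4d (chromosome 6, 123252686 to 123253224), had 9.37 in CD11b-high cells, none on day 0 and 7.57, 20.8 and 14.8 on day 4, 8 and 12, and 14.9, 11.8 and 4.14 at 4, 8 and 12 days off. Both were thus called in every library but day 0, and had their highest score in the day-8 list.

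At the start of Clec4e (chromosome 6, 123289789 to 123290110), the promoter printed above, the scores were 26.1 in CD11b-high cells, none on day 0 and 16.2, 27.7 and 22.4 on day 4, 8 and 12, and 15.1, 4.56 and 2.94 at 4, 8 and 12 days off. The day-0 list had a summit 628 bp from this region, inside the gene at 123288992 to 123289315, where it scored 6.33. Inside Clec4d, the gained region (chromosome 6, 123265836 to 123266184) had 8.35 in CD11b-high cells, none on day 0 and 9.10, 8.96 and 8.14 on day 4, 8 and 12, and none at 4, 8 and 12 days off; all 4 lists without it had a summit within 1 kb. The promoter region of Clec4d itself (chromosome 6, 123261571 to 123261916) had 6.94 in CD11b-high cells, none on day 0 and 12 and 7.71 and 8.78 on day 4 and 8, and 10.4 at 12 days off and none at 4 and 8 days off, and so was called in CD11b-high and not in total cells of day 12.

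The cluster was not closed at day 0. The regions 1856 bp before the start of Clec4d and 5010 bp inside it were open in all 8 libraries. At the first the scores were 18.9 in CD11b-high cells, 25.1, 29.4, 27.7 and 17.0 on day 0, 4, 8 and 12, and 33.9, 25.2 and 10.9 at 4, 8 and 12 days off. At the second they were 16.3 in CD11b-high cells, 8.16, 9.70, 20.9 and 14.2 on day 0, 4, 8 and 12, and 31.2, 19.4 and 16.7 at 4, 8 and 12 days off. At day 0 the 3 genes had 4 of 12 regions open, and at day 8 they had 10. Over all regions the share open was 51.5% at day 0 and 66.8% at day 8, whose list was longer. Lists cut to equal length gave, at day 0 and day 8, 1 and 3 open regions at Clec4n, 2 and 4 at Clec4d, and 1 and 1 at Clec4e.

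Trem1, which encodes an activating receptor that amplifies inflammation in neutrophils and monocytes, had a weak call before treatment. Its start (chromosome 17, 48232500 to 48232882) had 15.1 in CD11b-high cells, 3.81, 20.3, 30.3 and 20.8 on day 0, 4, 8 and 12, and 36.7 and 15.7 at 4 and 8 days off and none at 12 days off. Trem1 is therefore not counted as gained, because its day-0 score of 3.81 made the list. Trem2, a lipid-sensing receptor of tissue macrophages, had a region 9330 bp before its start with no summit in CD11b-high cells, 10.5 and 13.1 on day 0 and 8 and none on day 4 and 12, and 6.20 and 12.2 at 4 and 12 days off and none at 8 days off, and 1 inside it scoring 2.30 in CD11b-high cells alone. Clec7a, the gene of Dectin-1, had no region.

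**Figure D4:**
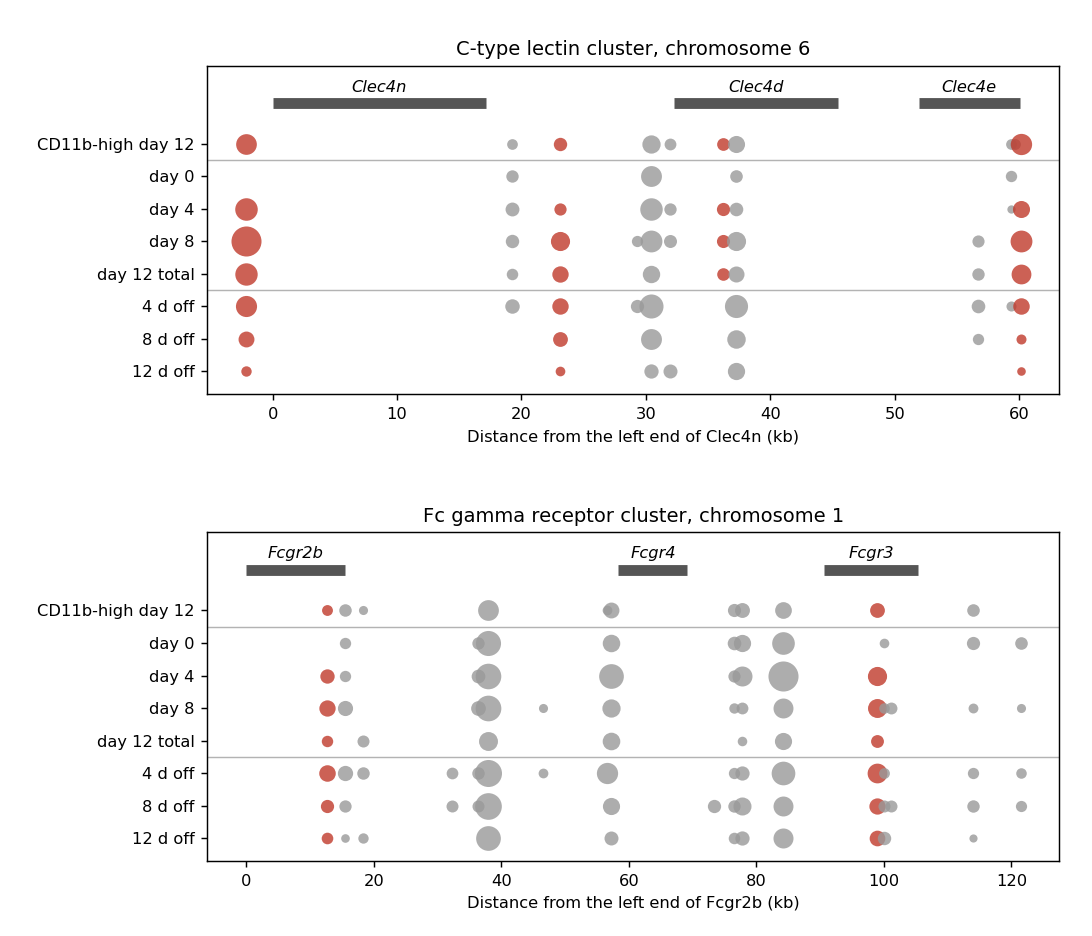
Called summits at the C-type lectin cluster (top) and the Fc gamma receptor cluster (bottom), by distance along the chromosome (kb) and library; circle area grows with the authors' score and red marks gained regions. The region left of Clec4n and the one at the start of Clec4e have no circle at day 0 and one in every other library, and so do those at an internal start of Fcgr3 and inside Fcgr2b.

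Fc receptor genes also held 4 gained regions. Fcgr1 encodes the high-affinity receptor for immunoglobulin G, a classic marker of macrophages. Its start (chromosome 3, 96293747 to 96294112) had 19.3 in CD11b-high cells, none on day 0 and 9.35, 32.8 and 5.08 on day 4, 8 and 12, and 12.8 at 4 days off and none at 8 and 12 days off. A region inside the gene (chromosome 3, 96287352 to 96287774) had no summit in CD11b-high cells, none on day 0 and 5.88, 8.51 and 5.69 on day 4, 8 and 12, and none at 4, 8 and 12 days off. Neither was called at 8 or 12 days off. The opposite held 35015 bp upstream (chromosome 3, 96328667 to 96329302), a lost region with no summit in CD11b-high cells, 12.1 on day 0 and none on day 4, 8 and 12, and 6.35, 18.9 and 18.2 at 4, 8 and 12 days off; no day-4, day-8 or day-12 summit lay within 1 kb of it. The region 4734 bp from the far end of Fcgr1 was open throughout, with scores of 14.8 to 38.8.

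Fcgr2b, Fcgr4 and Fcgr3, the inhibitory receptor and a pair of activating ones, share a cluster on chromosome 1. A gained region of Fcgr3 (chromosome 1, 171059233 to 171059596) lay at an internal start, 6501 bp from the nearer end of the gene span. Its scores were 11.8 in CD11b-high cells, none on day 0 and 20.9, 20.5 and 8.56 on day 4, 8 and 12, and 22.4, 14.6 and 13.5 at 4, 8 and 12 days off. Inside Fcgr2b, 2838 bp from its start (chromosome 1, 170973000 to 170973466), scores were 5.66 in CD11b-high cells, none on day 0 and 11.0, 14.7 and 6.41 on day 4, 8 and 12, and 15.2, 9.12 and 6.68 at 4, 8 and 12 days off. Day 0 had no summit nearer than 1029 bp to the Fcgr3 region and 2599 bp to the Fcgr2b region. Unlike the gained regions at Fcgr1, these were still called at 12 days off. The start of Fcgr2b (chromosome 1, 170975696 to 170976276) had 8.00 in CD11b-high cells, 6.30, 6.27 and 12.5 on day 0, 4 and 8 and none on day 12, and 12.7, 7.65 and 3.0 at 4, 8 and 12 days off, with the day-12 list of total cells the one without it.

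Fcgr4 had 0 gained and 0 lost of 7 regions. The highest-scoring, 20478 bp before the start (chromosome 1, 170998231 to 170998666), had 24.8 in CD11b-high cells, 37.0, 38.6, 38.9 and 20.4 on day 0, 4, 8 and 12, and 43.2, 42.1 and 35.9 at 4, 8 and 12 days off. The region 1123 bp before the start was called in every library but 4 days off, when the summit lay in the adjoining region at 171016997 to 171017364. A region 6460 bp from Fcgr3, between the genes, was open in all 8, with its highest score of 53.9 at day 4. Fcer1g encodes the gamma chain shared by activating Fc receptors and lectins; its start was open in all 8, with scores of 10.5 to 40.2, and a region inside it had no summit in CD11b-high cells, none on day 0 and 4 and 9.45 and 3.32 on day 8 and 12, and 20.9 and 9.55 at 4 and 8 days off and none at 12 days off.

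Transcription factors held the most regions, 84, and 18 of the 32 that were open throughout. Klf4, a factor needed for monocyte differentiation in mice, had calls that went opposite ways. A region 91063 bp before its start (chromosome 4, 55623375 to 55623701) was gained, with 15.0 in CD11b-high cells, none on day 0 and 18.2, 29.9 and 24.5 on day 4, 8 and 12, and 6.20 at 4 days off and none at 8 and 12 days off. The region over its start (chromosome 4, 55532384 to 55532930) had no summit in CD11b-high cells, 18 and 5.88 on day 0 and 4 and none on day 8 and 12, and 21.3, 30.5 and 13.4 at 4, 8 and 12 days off. The distal call was thus present from day 4 to 4 days off, and the promoter call was missing at day 8, at day 12 and in CD11b-high cells. It is not counted as lost, since it was still called at day 4.

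Zeb2, a zinc-finger repressor that keeps macrophage and monocyte identity in mice, gained a region deep inside the gene (chromosome 2, 45049232 to 45049697), with 17.7 in CD11b-high cells, none on day 0 and 20.6, 19.2 and 29.8 on day 4, 8 and 12, and 21.6 and 9.11 at 4 and 8 days off and none at 12 days off. The nearest day-0 summit was 60806 bp away. Its lost region was weak, scoring 4.47 at day 0 alone beside a region called at day 4 and day 8. Calls at other annotated starts went the other way from the gained region. One (chromosome 2, 45117062 to 45117433) scored 5.82 and 6.33 on day 0 and 4, and 3.29 at 12 days off. Another (chromosome 2, 45112894 to 45113259) scored 4.40 and 3.31 on day 0 and 4, and 4.73 and 5.27 at 4 and 8 days off. Neither was called on day 8, on day 12 or in CD11b-high cells. Beyond the gene's far end, 1691 bp outside it (chromosome 2, 44981621 to 44982022), a region was open throughout, with 33.1 in CD11b-high cells, 11.1, 20.6, 39.1 and 29.0 on day 0, 4, 8 and 12, and 52.3, 40.5 and 17.6 at 4, 8 and 12 days off.

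Id2, an inhibitor of basic helix-loop-helix factors, gained 2 distal regions among 12. At 81895 bp before the start (chromosome 12, 25177796 to 25178178) scores were 8.64 in CD11b-high cells, none on day 0 and 5.88, 14.4 and 6.82 on day 4, 8 and 12, and 12.3 at 4 days off and none at 8 and 12 days off. At 61386 bp (chromosome 12, 25157273 to 25157684) they were low, 3.25 in CD11b-high cells, none on day 0 and 5.88, 7.43 and 2.59 on day 4, 8 and 12, and none at 4, 8 and 12 days off. Its start was open in all 8, at 20.4 to 61.7. Bhlhe40, a transcriptional repressor expressed in tissue macrophages and T cells, had 13 regions, of which 1 was gained 42295 bp outside it (chromosome 6, 108618004 to 108618664), with 6.36 in CD11b-high cells, none on day 0 and 5.08, 14.4 and 6.80 on day 4, 8 and 12, and 5.21 at 4 days off and none at 8 and 12 days off. Its lost region, 1621 bp outside, scored 3.58 before treatment, then 7.23 and 5.38 at 4 and 8 days off. Beside one end of Bhlhe40, 2 regions centred 1108 and 164 bp outside it took turns: in all 8 libraries at least 1 of them held a summit.

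Klf2, which restrains inflammatory genes in myeloid cells, had its start open in all 8, at 34.8 to 57.8. It gained a region 894 bp beyond its far end (chromosome 8, 72322331 to 72322765), with 4.34 in CD11b-high cells, none on day 0 and 22.8, 9.38 and 8.91 on day 4, 8 and 12, and none at 4, 8 and 12 days off. The EGR factors, early-response genes that favour macrophage over granulocyte fate in mice, had no gained region. All 3 regions of Egr2 were open throughout, and the one at its main start had 41.5 in CD11b-high cells, 65.4, 68.5, 48.6 and 32.4 on day 0, 4, 8 and 12, and 59.6, 48.7 and 28.1 at 4, 8 and 12 days off. Egr3 lost a region 445 bp outside it that scored 6.28 at day 0, 7.48 at 4 days off and 2.46 at 12 days off, while a region 2515 bp away stayed open at 13.9 to 40.9. Egr1 had 7 regions with 0 gained and 0 lost; its calls within 1 kb of the gene moved between 2 adjoining regions, and each library had a summit in exactly 1 of them.

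Nr4a1, an orphan nuclear receptor needed for patrolling monocytes in mice, lost the region at an internal start (chromosome 15, 101266595 to 101266943), with 4.71 in CD11b-high cells, 5.99 on day 0 and none on day 4, 8 and 12, and 10.3 at 4 days off and none at 8 and 12 days off. A region 7433 bp outside the gene was open throughout, at 34.0 to 81.2. Pparg, the lipid-sensing nuclear receptor of alveolar macrophages, had 0 gained and 0 lost of 6. Its first start (chromosome 6, 115360723 to 115361305) had no summit in CD11b-high cells, 3.81 and 2.59 on day 0 and 8 and none on day 4 and 12, and 16.4, 8.08 and 5.03 at 4, 8 and 12 days off, while the region at a later start in the gene was open throughout, at 7.74 to 34.1. Nr1h3, encoding the oxysterol receptor LXR alpha, had 1 of 2 regions open throughout, at 7.0 to 42.7. Maf and Bhlhe41, factors of mature macrophages, had 4 and 8 regions with 0 gained and 0 lost. Neither had an open region in total cells at day 12.

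Scavenger and uptake genes had no gained region. Mrc1 (the mannose receptor), Msr1, Cd36, Marco, Axl, Mertk, C1qa and Cd163 had 16 regions together, and Apoe had none. The lost region lay inside Cd163, the haemoglobin scavenger receptor (chromosome 6, 124320401 to 124320754), with no summit in CD11b-high cells, 14.2 on day 0 and none on day 4, 8 and 12, and 17.0, 14.4 and 9.23 at 4, 8 and 12 days off. All 4 lists without it had a summit within 1 kb, in the adjoining region that was open in all 8. Msr1, a receptor for modified lipoproteins, had 1 region, inside the gene (chromosome 8, 39619813 to 39620125), which scored 9.84 in CD11b-high cells and 11.9 at day 8 and was in no other list. The region of C1qa, a complement subunit that tags dying cells, was open in 7 libraries at 5.27 to 14.1. Of Mertk and Axl, receptors for dying cells, Mertk had 1 region open in 6 libraries at 7.99 to 13.5, and Axl had at most 4 of 5 open, at 4 days off. Inside Mrc1 (chromosome 2, 14295412 to 14295787) the scores were 9.84 in CD11b-high cells, 9.12, 5.08, 20.8 and 9.19 on day 0, 4, 8 and 12, and 21.7 and 8.08 at 4 and 8 days off and none at 12 days off. Cd36 had 1 region open in 4 libraries and Marco 1 open in 1.

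Among surface markers and effectors, Adgre1, the gene of the macrophage antigen F4/80, gained a region 11353 bp outside it (chromosome 17, 57347037 to 57347419), with 16.0 in CD11b-high cells, none on day 0 and 9.36, 28.0 and 17.3 on day 4, 8 and 12, and 11.9 at 4 days off and none at 8 and 12 days off. A neighbour farther out (chromosome 17, 57344051 to 57344672) was open in all 8, with 37.8 in CD11b-high cells, 10.0, 16.4, 29.8 and 17.5 on day 0, 4, 8 and 12, and 13.6, 12.9 and 8.43 at 4, 8 and 12 days off. The region at the near end of the gene was open in all 8 as well, at 4.35 to 18.1. Cd14, the lipopolysaccharide co-receptor, had 1 region over the gene, called at day 4, day 8, 4 days off and 8 days off with scores of 2.49 to 4.77. Mpeg1, the pore-forming protein of macrophages, had a region inside it in every library but total cells of day 12, at 3.36 to 15.0.

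F13a1, the coagulation factor XIII A subunit made by monocytes, had 9 regions. Of these 4 were open in CD11b-high cells, 3, 3, 4 and 3 over day 0, 4, 8 and 12, and 9, 6 and 2 by 4, 8 and 12 days off. Lists cut to equal length gave 3 in CD11b-high cells, 3, 1, 3 and 3 over the days on Dox, and then 7, 6 and 2. The 4-day withdrawal library was thus the one with most F13a1 calls at either list length. Its full list was also the longest, with 72.7% of all regions open, against 51.5% at day 0 and 59.0% at 8 days off. Whether F13a1 differed from regions in general was not tested. A region 411 bp inside the gene's start (chromosome 13, 37049654 to 37050013) was called at 4 and 8 days off alone, at 10.3 and 7.08, and the region over the start (chromosome 13, 37050152 to 37050452) at 4 days off alone, at 5.98. Its lost region, 54874 bp upstream, scored 7.23 at day 0, then 8.29 and 9.11 at 4 and 8 days off. Lgals3, a galectin gene, had a region 712 bp inside it open throughout, at 9.84 to 31.5.

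Of the costimulation and adhesion genes, Cd86, a ligand for the costimulatory receptor CD28 of T cells, gained 2 regions inside the gene. At 39157 bp from its nearer end (chromosome 16, 36626811 to 36627192) scores were 13.6 in CD11b-high cells, none on day 0 and 12.2, 18.1 and 12.8 on day 4, 8 and 12, and 19 and 11.2 at 4 and 8 days off and none at 12 days off. The one at 46556 bp (chromosome 16, 36619429 to 36619775) had no summit in CD11b-high cells, none on day 0 and 8.45, 5.37 and 6.82 on day 4, 8 and 12, and 4.26 and 9.11 at 4 and 8 days off and none at 12 days off. Another region inside Cd86 was lost, scoring 4.62 at day 0 and 4.26 at 4 days off. None of the regions of Cd86 was called at 12 days off. Vcam1, an adhesion molecule of resident macrophages, lost a region with scores of 3.15 at day 0 and 5.77 at 4 days off. Its highest-scoring region, 32737 bp outside the gene (chromosome 3, 116162125 to 116162726), had 18 in CD11b-high cells, 6.19, 12.2, 7.11 and 9.44 on day 0, 4, 8 and 12, and 9.75 and 6.11 at 4 and 8 days off and none at 12 days off. Cd80 had 3 regions, of which 1 was called before withdrawal, at day 4 with a score of 2.19. Cd40 had 1 region, open in 5 libraries at 4.24 to 9.46.

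**Figure D5:**
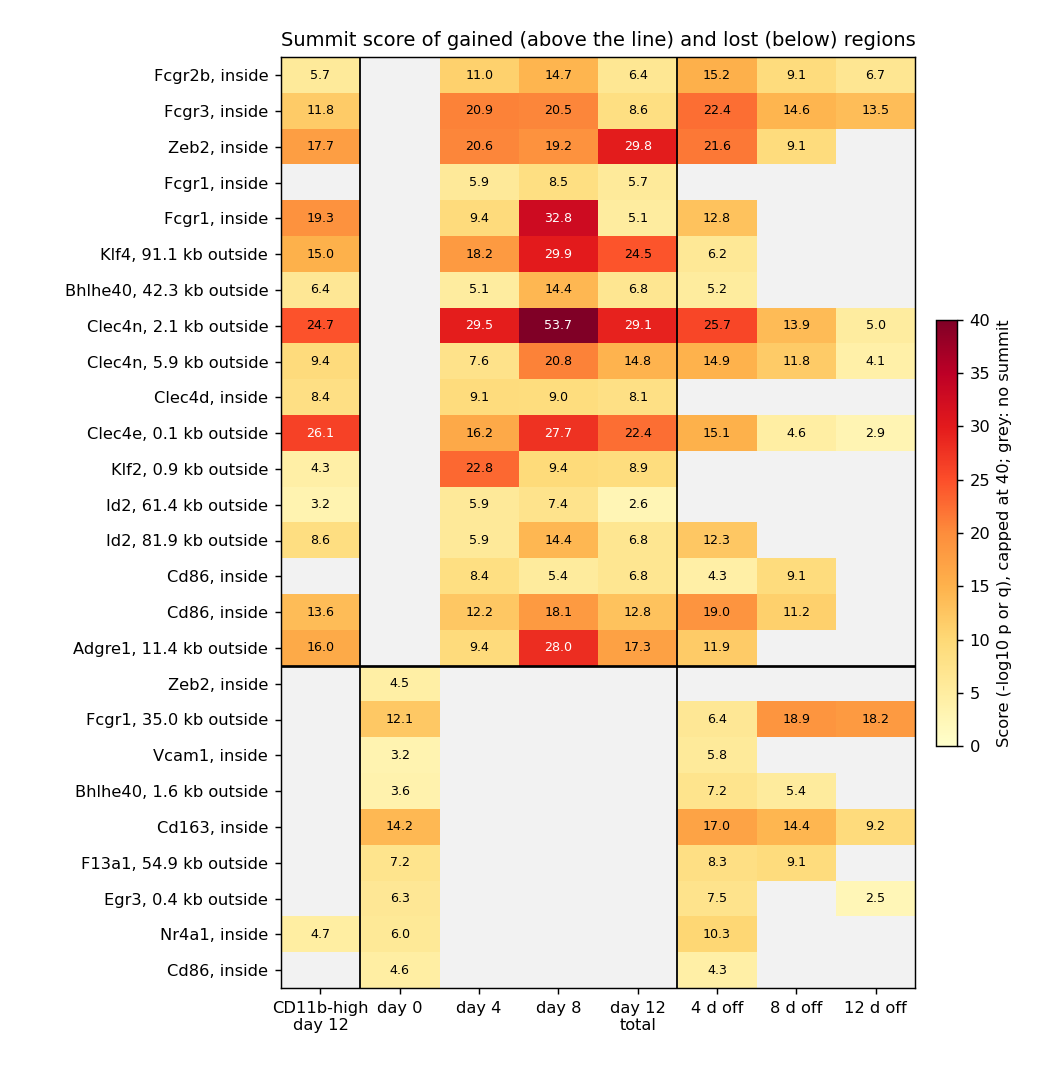
Authors' score of the 17 gained (above the thick line) and 9 lost regions (below it) in each library; colour is capped at 40, and grey cells hold no summit. Of the gained regions 5 are called at 12 days off, at Clec4n (2 regions), Clec4e, Fcgr2b and Fcgr3.

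The second comparison set CD11b-high cells against total cells of the same day. Of the 176 regions, 21 were called in CD11b-high cells only, or 11.9% (7.54 to 17.7), against 10.7% of all regions. In total cells only there were 15, or 8.52% (4.85 to 13.7), against 9.20%. Both shares were close to the background. Of the 17 gained regions 15 were open in CD11b-high cells, the exceptions being 1 each at Fcgr1 and Cd86, and of the 9 lost ones 1 was, at Nr4a1. As shares these were 88.2% and 11.1%, against 84.0% of all gained and 7.45% of all lost regions. CD11b-high cells came from the same day of culture as total cells of day 12. Their list was no part of the rule for gained and lost regions, but that of total cells was. The overlap is therefore no independent check.

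Among the regions called in CD11b-high and not in total cells were those at the start of Fcgr2b (8.00), before the start of Clec4d (6.94) and inside Msr1 (9.84), whose values are given above. Inside Pparg (chromosome 6, 115424476 to 115424891) the scores were 7.54 in CD11b-high cells, 7.43, 16.3 and 18.9 on day 0, 4 and 8 and none on day 12, and 17.2, 8.80 and 3.19 at 4, 8 and 12 days off. Outside Maf (chromosome 8, 115718580 to 115719077) they were 5.27 in CD11b-high cells, none on day 0, 4 and 12 and 5.79 on day 8, and 9.39 and 6.11 at 4 and 8 days off and none at 12 days off. The Maf region was thus also called on day 8, and the Pparg region was missing from total cells of day 12 alone.

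Within 1 kb of the start of Clec4e, 2 regions inside the gene were called in CD11b-high and not in total cells. The one at 718 bp (chromosome 6, 123288992 to 123289315) had 5.51 in CD11b-high cells, 6.33 and 2.61 on day 0 and 4 and none on day 8 and 12, and 4.63 at 4 days off and none at 8 and 12 days off. The one at 326 bp (chromosome 6, 123289395 to 123289695) was called in CD11b-high cells alone, at 5.51. Total cells of day 12 had their summit in the gained region at the start, so these calls lay beside one that both libraries shared. Deeper in Clec4e, another region (chromosome 6, 123286352 to 123286701) went the other way, with no summit in CD11b-high cells, none on day 0 and 4 and 7.47 and 7.81 on day 8 and 12, and 9.81 and 6.24 at 4 and 8 days off and none at 12 days off.

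At Fcgr4 and Fcgr3, regions beyond the genes were called in CD11b-high and not in total cells. Between these genes, 7356 bp outside Fcgr4 (chromosome 1, 171036940 to 171037294), scores were 9.03 in CD11b-high cells, 9.75, 7.57 and 5.02 on day 0, 4 and 8 and none on day 12, and 6.23, 7.87 and 6.58 at 4, 8 and 12 days off. Beyond the upstream end of Fcgr3, 8544 bp outside it (chromosome 1, 171074273 to 171074646), they were 8.12 in CD11b-high cells, 9.11 and 4.39 on day 0 and 8 and none on day 4 and 12, and 6.20, 7.86 and 2.48 at 4, 8 and 12 days off. The Fcgr4 region was missing from total cells of day 12 alone, and the Fcgr3 region from those of day 4 as well. Total cells of day 12 had a summit 776 bp from the Fcgr4 region, in a neighbouring region that was open in all 8 libraries.

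Near Bhlhe41, 2360 bp outside it (chromosome 6, 145855610 to 145856156), scores were 5.02 in CD11b-high cells, 10.1, 12.2 and 7.0 on day 0, 4 and 8 and none on day 12, and 14.4, 7.08 and 1.73 at 4, 8 and 12 days off. Inside Mpeg1 (chromosome 19, 12464062 to 12464527) they were 6.29 in CD11b-high cells, 3.36, 3.93 and 6.89 on day 0, 4 and 8 and none on day 12, and 14.4, 15.0 and 7.44 at 4, 8 and 12 days off. Both regions were thus missing from total cells of day 12 alone. At Egr1, the adjoining regions differed between the day-12 libraries. The one 299 bp outside the gene had 18.5 in CD11b-high cells, 36.7, 37.7 and 27.6 on day 0, 4 and 8 and none on day 12, and 20.9 at 12 days off and none at 4 and 8 days off. The one 685 bp outside it had no summit in CD11b-high cells, none on day 0, 4 and 8 and 23.6 on day 12, and 33.2 and 24.1 at 4 and 8 days off and none at 12 days off. Each day-12 library thus had a strong summit beside Egr1, in different regions.

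The reverse, calls in total and not CD11b-high cells, included the regions inside Fcgr1 and Cd86 given above. Before the start of Mertk, 653 bp outside it (chromosome 2, 128698091 to 128698433), there was no summit in CD11b-high cells. Scores in total cells were 10.1, 8.09 and 7.99 on day 0, 8 and 12 and none on day 4, and 13.5, 10.2 and 8.83 at 4, 8 and 12 days off. Inside Axl (chromosome 7, 25776808 to 25777113) there was no summit in CD11b-high cells. Scores in total cells were none on day 0 and 4 and 10.7 and 7.23 on day 8 and 12, and none at 4, 8 and 12 days off. The Mertk region was thus called before treatment and after withdrawal, and the Axl region on Dox alone. At the start of Lgals3 (chromosome 14, 47373662 to 47374048) there was no summit in CD11b-high cells. Scores in total cells were 4.78, 8.87 and 6.40 on day 0, 8 and 12 and none on day 4, and 5.02, 7.01 and 4.26 at 4, 8 and 12 days off. The CD11b-high and day-4 lists had a summit 454 and 464 bp from it, in the region inside Lgals3 that was open throughout. Inside Nr4a1 (chromosome 15, 101256877 to 101257198) there was no summit in CD11b-high cells. Scores in total cells were none on day 0 and 4 and 4.02 and 5.65 on day 8 and 12, and none at 4, 8 and 12 days off. Calls inside Pparg (5.52, total cells of day 12 alone) and Adgre1 (5.69, and 3.35 at 4 days off) were the others with a score of 5 or more.

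The last comparison followed the changed regions after withdrawal. Of the 17 gained regions, 13 (76.5%) were called at 4 days off, 8 (47.1%) at 8 days and 5 (29.4%) at 12 days, the last with an interval of 10.3 to 56.0%. Among all 3399 gained regions these shares were 74.8%, 49.5% and 26.2%, each inside the members' interval. These 17 regions, defined on the full lists, were also followed in withdrawal lists cut to equal length by score. The counts were then 10, 7 and 5 (58.8%, 41.2% and 29.4%), against 46.7%, 30.5% and 26.2% of all gained regions. With every list cut before merging, 16 member regions were gained, and 31.25% of them were called at 12 days off. The regions at Clec4n, Clec4e, Fcgr3 and Fcgr2b were called at all 3 times, while those at Klf2, at Clec4d, inside Fcgr1 and 61386 bp from Id2 were called at none.

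Of the 9 lost regions, 8 (88.9%) were called again at 4 days off, 4 (44.4%) at 8 days and 3 (33.3%) at 12 days, against 48.4%, 44.8% and 25.6% of all lost regions. With these 9 regions kept and only the withdrawal lists cut to equal length, the counts were 2, 3 and 3 (22.2%, 33.3% and 33.3%). The shares of all lost regions were then 15.9%, 24.9% and 25.6%. The count at 4 days off thus moved with the length of that list, for members and for all regions. Called at all 3 times off were the lost regions upstream of Fcgr1 and inside Cd163.

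A further 34 regions, 19.3% (13.8 to 25.9), were called only after withdrawal, against 15.0% of all regions. They lay at 20 genes, and 20 of them were called at 4 days off and in no other list. That list was the longest, and the matching count over all regions was not made. The pattern of calls only after withdrawal was looked at after the lists had been seen. Id2 and Bhlhe41 had 4 each, and Klf4 and F13a1 3 each. Inside Cd80 (chromosome 16, 38476218 to 38476674), 1 such region was called at all 3 times, at 8.29, 6.76 and 5.96. Another, 46652 bp outside Klf4 (chromosome 4, 55480193 to 55480778), scored 8.29, 6.05 and 2.18. Of all member regions 39 (22.2%) were called in a single library, against 23.5% of all regions.

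Macrophage genes outside the set also had changed regions. Of 22 such genes 15 had a region, and their 42 regions held 7 gained (16.7%) and 3 lost (7.14%). Ccr2, the chemokine receptor of inflammatory monocytes, accounted for 3 of the gained. Clec4a1 and Clec4a2, lectin genes of the same family as Clec4d and Clec4e, each gained a region near a gene end, scoring 11.5 in CD11b-high cells and 7.57, 13.4 and 11.2 at day 4, 8 and 12 at Clec4a1, and 22.1 and then 11.0, 28.3 and 24.0 at Clec4a2. Neither of these was called after withdrawal, unlike the regions at Clec4e and Clec4n. Siglec1 gained 1 region and lost 1, Irf8, the factor of monocyte and dendritic progenitors, gained 1 and lost 1, and the cathepsin gene Ctss lost 1. The label of the set rests on function and not on the state of these cells. Cd68 had 1 region, open in 6 libraries. Csf1r had 3, of which 2 were open in CD11b-high cells. In total cells 1 was open at day 4, at 4 days off and at 12 days off, and 0 at day 0, 8 and 12 and at 8 days off.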

How the data were processed

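Peak summits from ATAC-seq were analysed in 8 libraries of AML246 cells, 1 per group, taken from the labels. Per the submitters' processing notes, the tools included Picard 2.14.0 and MACS2, on build mm10; no MACS2 version, aligner or depth is stated there. The deposited score of each summit was read as a −log10 p-value or q-value, since the smallest in each list was 1.30 to 1.39, near the −log10 of 0.05; no source used here says which. Depth was therefore known only as list length, 31957 to 51175 summits.

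Summits on chromosomes 1 to 19, X and Y (85 to 121 per list lay elsewhere) were widened by 150 bp on both sides and merged into 68800 regions with Python 3.11.15, pandas 2.3.3 and numpy 2.4.6; intervals used scipy 1.17.1 and figures matplotlib 3.10.9. Each region went to the protein-coding gene span nearest its midpoint within 100 kb, in a RefSeq table of GRCm38.p6 without exons; exons, introns and UTRs were not analysed here. Promoter windows and strand came from RefSeq and matched 32 of 44 members. No genome sequence was used, so motifs were searched in promoter windows only. The steps were tested on simulated lists.

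The members and gene lists were chosen with earlier results of these data known. Every member is accounted for; full values are given for genes with a gained or lost region, with a region of score 5 or more called in CD11b-high or total cells alone at day 12, for the genes with most regions, and for both receptor clusters. Alternatives were lists of equal length, a score of at least 10, extension by 75 or 250 bp, genes within 20 kb, removal of regions with an opposing summit within 1 kb, and day 12 alone against day 0. Extension by 500 bp, leaving out the day-4, day-8 or day-12 list, and exchanging the day-12 list for that of CD11b-high cells or the day-0 list for that of 12 days off were added after seeing the data.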

Additional observations from a re-analysis of the deposited data

How the results depend on the processing

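The gained share of member regions lay above that of all regions in all 13 alternatives run. These reuse the same 8 lists and are not independent. With genes within 20 kb, 139 member regions were set against all 68800 regions, to which the limit was not applied. The lost share lay below that of all regions in 8 and above it in 5, so no direction can be given for it. At a score of at least 10, which left 89 member regions, 7 were gained (7.87%, against 3.85% of all regions). Lost were 4 (4.49%, against 5.08%), and 15 were open in all 8 (16.9%, against 26.8%). In CD11b-high cells only 7 were called, and 9 in total cells only, and 0% of the gained were called at 12 days off. Shares over all regions were not made for these last counts. Regions per 10000 were 17.2 at day 0 and 19.5 at 8 days off. With genes within 20 kb, regions per 10000 were 18.8 in CD11b-high cells, 17.2, 17.7, 18.5 and 17.6 at day 0, 4, 8 and 12, and 20.8, 19.7 and 18 at 4, 8 and 12 days off, since fewer regions were counted. With day 12 alone against day 0, 35 were gained (19.9%, against 13.8%) and 36 lost (20.5%, against 15.7%). Without the day-4 list there were 26 gained and 15 lost, and without the day-8 list 20 lost. The other 65 of 86 recomputed values stayed within 1.5 times a count or inside the 95% interval of a share. No paired analysis was possible because each group held 1 library. Read depth was unknown, so a weak region may be missing from a short list.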
